A study of Nasonia vitripennis with 2 samples.

Results

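Mid-length clusters of methylated CpG sites with partial methylation were described in the parasitoid wasp Nasonia vitripennis. They were 559 of the 5749 chains of methylated CpGs found in the genome, and 559 of the 4559 chains of their length. A covered CpG had at least 10 reads, and a covered CpG with more than 10% methylated reads was counted as methylated (mCpG). mCpGs of a scaffold at most 500 bp apart were joined into a chain, which ended at 3 covered non-methylated CpGs in a row. Chains with at least 4 covered CpGs, of which more than 80% were mCpGs, were kept. The 559 clusters spanned at least 500 bp and under 2500 bp, and their methylation percentage, the methylated reads over all reads of their covered CpGs, was at least 20% and under 50%. The 3999 clusters of the same span at 50% or more are called highly methylated below.

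The DNA came from whole bodies of 50 adult females of the standard strain AsymCX, taken at 24 h and pooled. It was sequenced by whole-genome bisulfite sequencing in 2 lanes, which the deposited table sums for each CpG. There was 1 pool and 1 condition, without treatment or other genotype, so no groups of samples could be compared and no value has a replicate. All intervals below are 95% intervals. Those of methylation percentages cover counting error only, and reads amplified by PCR without molecular identifiers are not independent molecules. Those of medians and of shares of clusters or sites treat clusters or sites as independent draws. No interval covers variation between pools.

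Bisulfite turns unmethylated cytosine into uracil, read as T, and leaves methylated cytosine as C, so that the share of C reads at a CpG site is its methylation level. In insects with DNA methylation, the mark lies mostly on CpG sites of gene bodies, and in hymenopterans most of it is found in exons of broadly expressed genes. A level between none and full can come from sites that each are methylated in part of the DNA molecules, or from highly and weakly methylated sites side by side, and the whole body holds many cell types.

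Over all 14024488 CpG sites there were 226856322 counts, and the median covered CpG had 19 reads. The partially methylated clusters held 8474 of the 116929 mCpGs, or 7.25%, on 111 scaffolds. They contained 10323 CpG sites, of which 9532 were covered, with 375936 counts. Their pooled methylation percentage was 43.4% (43.3 to 43.6%), and that of the highly methylated clusters was 65.4%. The clusters were selected on this percentage, so these levels follow from the rule.

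Single clusters ranged from 22.1 to 49.9%, with a median of 44.6% and quartiles of 39.7 and 47.6%. The clusters crowded toward the upper limit. In classes of 5 percentage points from 20% up, there were 5, 17, 40, 86, 141 and 270 clusters, and the next classes of mid-length clusters, from 50% up, held 425, 658 and 798. The numbers thus ran on through 50% without a gap. A cluster's own interval reached to a median of 3.85 points on each side, and it included 50% in 226 of the 559 clusters (40.4%). By contrast, 22 clusters were under 30%. The study's own criterion for a cluster, an average above 40%, was passed by the pooled percentage of 411 of the 559. The number of clusters was 238 when only sites above 20% counted as mCpGs, 345 with gaps of at most 200 bp, and 342 when the mean of the sites' own percentages took the place of the pooled percentage.

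The clusters next to each limit were as follows. At the lower limit, clusters on SCAFFOLD52 (360153 to 361223, in the coordinates of the deposited table) and SCAFFOLD2 (7293421 to 7293966) had 22.1% and 23.4%. A single mid-length chain lay below it, on SCAFFOLD1861 (42135 to 43158), at 13.3% with a mean depth of 188.8 reads. At the upper limit, clusters on SCAFFOLD14 (375105 to 376119) and SCAFFOLD1 (3727347 to 3729393) both had 49.9%, and those on SCAFFOLD1 (1148269 to 1150317) and SCAFFOLD8 (935878 to 937983) both had 50.0% and fell outside. The shortest clusters, on SCAFFOLD23 and SCAFFOLD9, spanned 501 and 504 bp, and the nearest shorter chains at a partial level spanned 499 and 498 bp. The longest, on SCAFFOLD2 and SCAFFOLD123, spanned 2496 and 2461 bp, and the nearest 2 longer chains, on SCAFFOLD197 and SCAFFOLD47, both spanned 2533 bp.

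In size the partially methylated clusters were much like the others of their span class. The median span was 1101 bp (1043 to 1158 bp), against 1137 bp (1117 to 1155 bp) in highly methylated clusters. They had a median of 17 covered CpGs and 625 reads, against 18 covered CpGs and 577 reads in highly methylated clusters.

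Sites of the same cluster often differed widely in level, but many single sites were partly methylated themselves. Of the mCpGs in these clusters, 26.5% were above 25% and up to 50%, and 27.4% were above 50% and up to 75%. The cluster with the most mCpGs, on SCAFFOLD21 (2948450 to 2950696), had 39 mCpGs among 47 covered CpGs and a methylation percentage of 49.5% from 1839 reads. Its sites ranged from 0 to 96.0%. From 134 to 450 bp after its first mCpG, 10 covered CpGs had between 63.6 and 94.1%. Then came 5 sites within 34 bp, from 491 to 525 bp, with 16.7, 13.5, 0, 2.78 and 14.7%, each from 34 to 37 reads. The site at 0% had 36 reads, and a count of 0, with a limit of 3 counts, allows up to 8.33% there. The level was 53.1% at 534 bp and 73.7% at 567 bp, and it reached 96.0% at 776 bp. From 1697 to 2155 bp the sites had between 0 and 38.7%, and the last 2, at 2217 and 2246 bp, had 87.0 and 94.1%. High and low stretches thus alternated along this cluster.

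**Figure D1:**
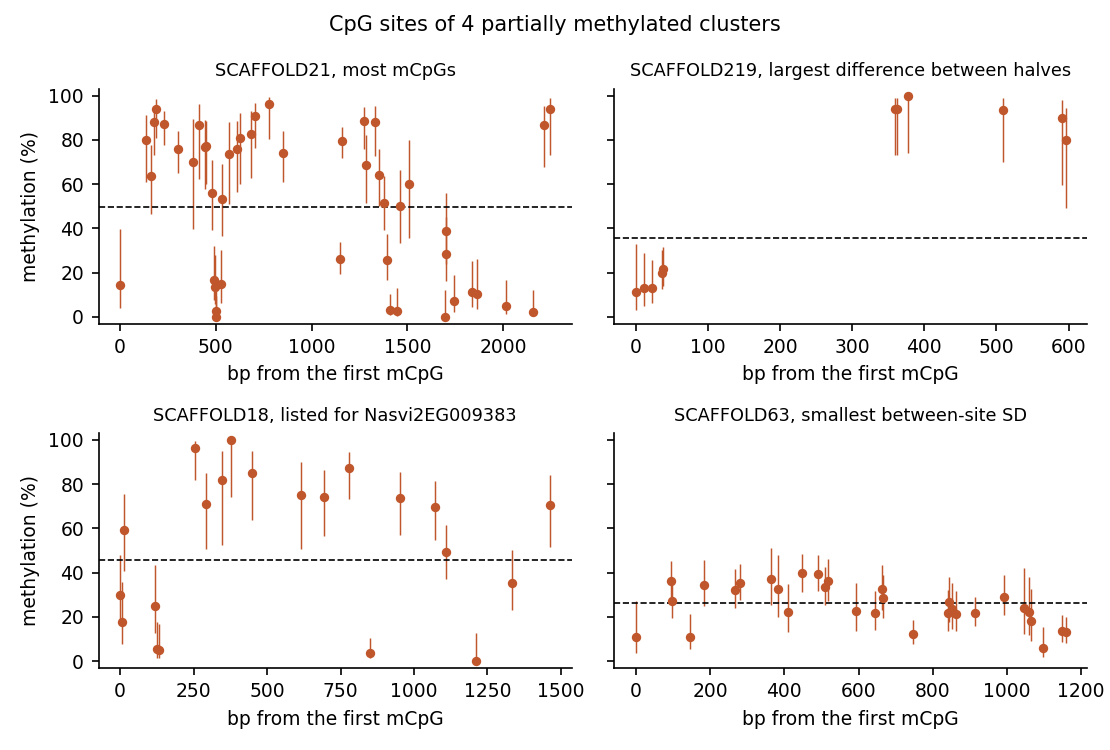
Methylation percentage of each covered CpG (points, with 95% Wilson intervals as vertical lines) against the distance in bp from the first mCpG, for 4 partially methylated clusters; the dashed line is the pooled percentage of the cluster. In the clusters on SCAFFOLD21, SCAFFOLD219 and SCAFFOLD18, pooled at 49.5, 35.5 and 45.7%, most sites lie far above or far below the dashed line, and in the cluster on SCAFFOLD63, pooled at 26.3%, every site is at 39.7% or less.

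The clusters on SCAFFOLD7 (1862053 to 1863515) and SCAFFOLD6 (1014163 to 1015570) came next, with 35 of 37 and 32 of 38 covered CpGs methylated. Sites of the first ranged from 2.63 to 83.3% around a pooled 47.5%. Neighboring sites in it could be far apart: at 538 bp the level was 69.4% and at 544 bp it was 2.63%, from 36 and 38 reads. The second ranged from 1.13 to 94.7% around a pooled 34.0%, with its low sites mostly in its right part.

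Among clusters with at least 10 covered CpGs, that on SCAFFOLD30 (1362385 to 1363251) had the largest spread between sites. Beyond counting error, the standard deviation (SD) of its site levels was 42.1 points. Its 12 covered CpGs had 92.2 and 90.6%, then 13.0 and 8.54%, then 92.9, 92.6 and 92.3%, then 17.4, 10.3 and 6%, and finally 94.6 and 97.4%. No site lay between 17.4 and 90.6%, and the pooled 41.9% was the level of none of them. The 5 low sites had 23 to 116 reads and the 7 high sites 13 to 64. The clusters on SCAFFOLD219 (307976 to 308572) and SCAFFOLD13 (21291 to 21969) followed, with SDs of 39.5 and 39.3 points.

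Even clusters were few. The smallest SD among clusters with at least 10 covered CpGs was 7.81 points, on SCAFFOLD63 (770897 to 772055), where 30 of 31 covered CpGs were mCpGs, the pooled percentage was 26.3% (24.7 to 28.1%) from 2571 reads, and sites ranged from 5.77 to 39.7%. Its mean depth was 82.9 reads in the cluster and 80.6 reads in its flanks, against a median of 38.4 reads in all partially methylated clusters and 29.7 reads in their flanks. The part of this depth in the level was not tested. On SCAFFOLD16 (698534 to 699567) all 16 covered CpGs were mCpGs, the pooled percentage was 30.6% and the SD was 7.93 points, at a mean depth of 37.4 reads. On SCAFFOLD1 (3194904 to 3196286) the pooled percentage was 23.9% over 26 covered CpGs, and the SD was 10.4 points. In all, 4 of the 559 clusters had an SD under 10 points (0.716%), against 111 of the 3999 highly methylated clusters (2.78%). Of the 1083 mid-length clusters from 50% to under 60%, it was under 10 points in 2 (0.185%), so the scarcity was not particular to partial methylation. Likewise, 7 partially methylated clusters had no site above 50%.

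Over all partially methylated clusters, the levels of the 9532 covered CpGs were spread almost evenly from end to end. The 9 classes of 10 points above 10% each held between 9.06 and 11.7% of the sites, with 11.7% above 10% and up to 20%, and 9.73% above 90%. A further 3.92% of the sites had no methylated read and 7.18% had more than 0 and up to 10%. In highly methylated clusters the shares grew toward full methylation, with 4.88% of 75186 sites above 10% and up to 20%, and 23.9% above 90%. Part of this difference follows from the rule, which chose the clusters by the pooled level of these sites. Of the mCpGs in partially methylated clusters, 27.6% were above 75% (26.7 to 28.6%), against 55.1% in highly methylated clusters (54.7 to 55.5%). The share was 17.7% when clusters were chosen by the mean of the sites' own percentages. Of the covered CpGs, 88.9% were mCpGs in partially methylated clusters and 94.7% in highly methylated ones. Every covered CpG was an mCpG in 78 partially methylated clusters (14.0%) and in 1836 highly methylated ones (45.9%). Among mid-length clusters from 50% to under 60%, this held for 215 (19.9%).

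**Figure D2:**
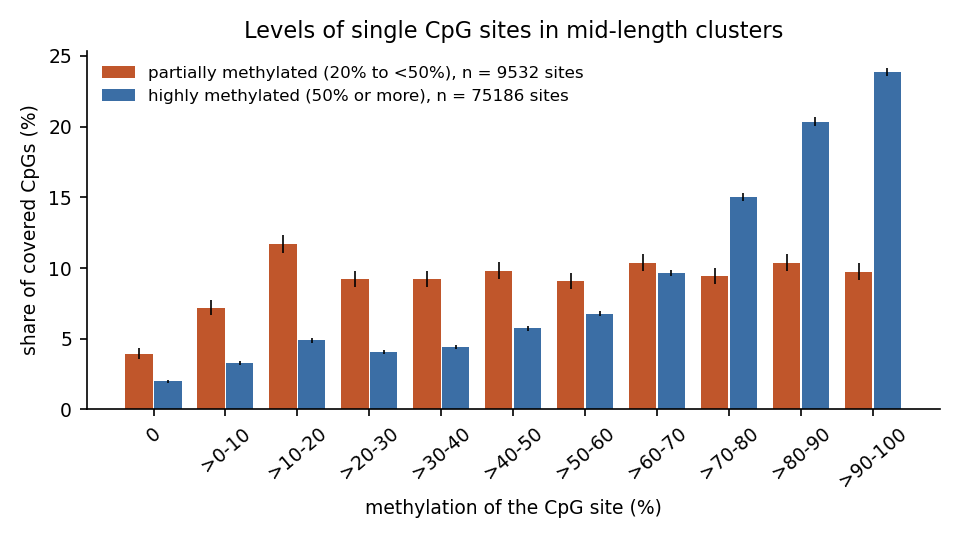
Share of covered CpGs (%) by methylation percentage of the site, for partially methylated (left bars) and highly methylated (right bars) mid-length clusters; vertical lines are 95% Wilson intervals. The left bars hold between 9.06 and 11.7% in every class above 10%, and the right bars climb to 23.9% above 90%.

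High and low sites stood in the same clusters, as they did in the 1083 mid-length clusters from 50% to under 60%, the nearest in level. A site above 75% and a covered site at 25% or less were both present in 486 of the 559 partially methylated clusters (86.9%, 83.9 to 89.5%), against 79.8% of highly methylated clusters and 96.6% of those from 50% to under 60%. A site above 90% was present in 342 (61.2%), against 94.1% of highly methylated clusters and 87.8% of those from 50% to under 60%. The median of the highest site was 93.2% and that of the lowest site 1.22%, against 100% and 8.33% in highly methylated clusters. In those from 50% to under 60% these medians were 97.4 and 2.22%. These shares and medians follow in part from the rule, which chose the clusters by the pooled level of the same sites. The SD between sites beyond counting error had a median of 28.9 points (28.2 to 29.7), against 25.8 points (25.5 to 26.0) in highly methylated clusters. Since the largest possible spread depends on the level, the variance was also set against that of sites that are either fully methylated or not at all. It reached a median of 33.9% of it (32.1 to 35.9%) in partially methylated clusters and 31.2% (30.7 to 31.8%) in highly methylated ones. In the clusters from 50% to under 60%, the SD was 29.6 points and the share 36.7%, both above the values of the partially methylated clusters.

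Whether the sites of a cluster differed by more than counting error was tested with a chi-square test of homogeneity, with Benjamini-Hochberg adjustment over all 5749 chains. At an adjusted p under 0.05 it called 558 of the 559 partially methylated clusters (99.8%). Among all chains 97.3% were called, so that unequal sites were the rule everywhere and were not particular to partial methylation. The exception, on SCAFFOLD8 (945145 to 945685), had 5 covered CpGs between 19.0 and 29.8%, an adjusted p of 0.241, and the largest mean depth of all 559 clusters, 123.8 reads, against 51.8 reads in its flanks. Since a read that spans several CpGs counts at each, sites were also thinned to distances over 75 bp, the trimmed read length. Then 550 of the 559 clusters were called, with 91.9% of all chains.

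The left and right parts of each cluster, split at the middle of its span, were compared next with two-sided Fisher's exact tests, adjusted over the 5557 chains with at least 2 covered CpGs on each side. Of the 553 partially methylated clusters tested, 411 were called (74.3%, 70.5 to 77.8%), against 66.0% of all chains tested. The share was 66.6% (65.1 to 68.1%) in highly methylated clusters and 73.3% in those from 50% to under 60%. The sides differed by a median of 20.4 points (18.1 to 21.8), against 13.9 points (13.4 to 14.5) in highly methylated clusters and 18.6 points in those from 50% to under 60%. They differed by more than 20 points in 278 partially methylated clusters (50.3%, 46.1 to 54.4%), against 32.9% of highly methylated ones and 46.9% (43.9 to 49.8%) of those from 50% to under 60%. The left side was the higher in 207 of the 411 called clusters. With sites thinned to over 75 bp, 350 of 532 partially methylated clusters were called, with 59.1% of all chains. The test allows for counting error only, and single sites differed by more than that in nearly all clusters. A call can thus come from a few unequal sites, without a difference between the sides as a whole. The direction of the genes was not analysed here.

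In a few clusters the sides were almost opposite. The largest difference was on SCAFFOLD219 (307976 to 308572), where the left side had 17.8% and the right side 92.5%, a left minus right difference of -74.7 points (adjusted p 1.98e-33, Fisher's exact test). Its 5 left sites, all within 38 bp, had 11.1, 12.9, 13.0, 20 and 21.7%, and its 6 right sites, from 359 to 596 bp, had 94.1, 94.1, 100, 93.3, 90 and 80%. No value overlapped between the sides. Reads were unequal too, with 18 to 83 at the left sites and 10 to 17 at the right ones, and the left sites lie close enough to share reads. On SCAFFOLD21 (2854247 to 2855354) the left side had 11.6% and the right side 84.5%, with an adjusted p of 5.50e-62 in the same test. On SCAFFOLD28 (349667 to 350181) the left side had 7.03% and the right side 77.9%, with an adjusted p of 4.52e-53. In that cluster the first 4 covered CpGs had 17.6, 0, 1.96 and 14.3%, the next 7 had between 59.0 and 91.7%, and the last had 15.4% from 13 reads. The adjusted p values of these clusters allow for counting error only, not for unequal sites within a side.

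In the site levels as counted, a single step from high to low was not the usual form, however. Read from left to right, the site level crossed 50% a median of 6 times (5 to 6) in a partially methylated cluster, against 5 times (4 to 5) in a highly methylated one and 6 times in one from 50% to under 60%. It did so at least 3 times in 494 of the 559 clusters (88.4%), against 77.1% of highly methylated ones and 91.9% of those from 50% to under 60%. Of the neighboring pairs of covered CpGs, 37.5% lay on opposite sides of 50%, against 27.8% in highly methylated clusters and 35.6% in those from 50% to under 60%. Since 50% is also the upper limit of the rule, part of the difference from highly methylated clusters follows from the rule. Crossings were counted without allowance for counting error, which can add some at sites near 50%.

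One of the clusters contains a position for which the study gives a gene. On SCAFFOLD18 (385659 to 387122), position 385941, a candidate non-CpG site, was placed by the study in the coding region of Nasvi2EG009383, whose function is not known from the sources used here. The cluster had 17 mCpGs among 21 covered CpGs and 45.7% methylation (42.0 to 49.4%). Its first 6 covered CpGs, within 133 bp, had 30, 17.9, 59.3, 25, 5.41 and 5.13%. The next 8, from 255 to 778 bp, all had between 70.8 and 100%. The site at 851 bp had 3.70% from 81 reads, between sites at 87.2 and 73.5%, and the site at 1210 bp had 0% from 26 reads, which allows up to 11.5%. The SD between sites was 32.4 points.

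Methylation was lower near the ends of the clusters than inside them. With the 2 end sites left out, which the rule requires to be mCpGs, sites within 100 bp of an end had 34.6% methylation (34.3 to 35.0%), and sites over 200 bp from both ends had 48.0% (47.7 to 48.2%), a difference of -13.3 points. The levels were 33.7% at 1 to 50 bp, 35.5% at 51 to 100 bp, 37.2% at 101 to 150 bp, 45.8% at 151 to 200 bp, and between 45.5 and 49.1% farther inside. The main step therefore fell at about 150 bp. The share of non-methylated CpGs was 24.7% at 1 to 50 bp and 8.62% over 200 bp from both ends. Highly methylated clusters had the same form, with 57.0% within 100 bp and 69.5% over 200 bp inside. Mean depth was similar at both places in partially methylated clusters, with 40.4 and 38.6 reads per site. As clusters end where non-methylated CpGs follow each other, the rule itself bears on the levels near the ends.

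**Figure D3:**
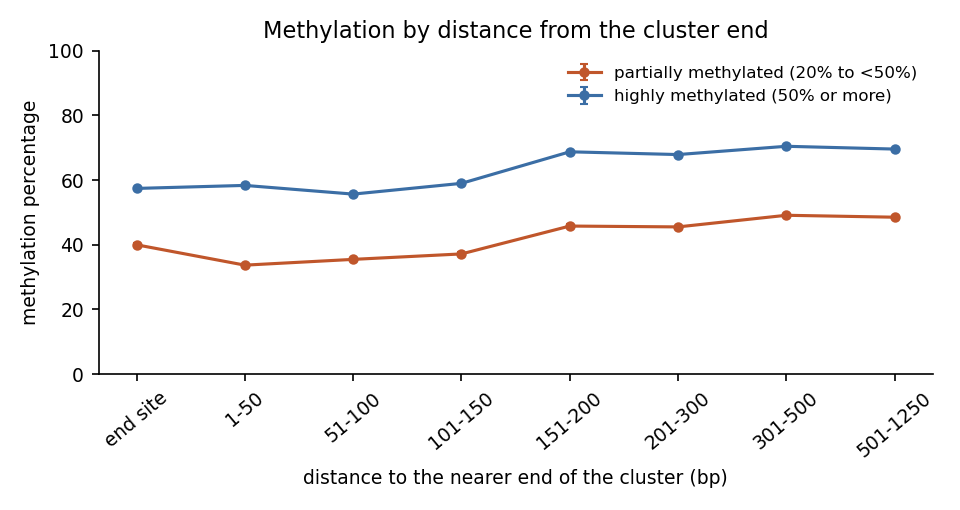
Pooled methylation percentage of covered CpGs against the distance in bp to the nearer end of the cluster, for partially methylated and highly methylated mid-length clusters; the 95% Wilson intervals are mostly smaller than the points. Both lines step up between the classes of 101 to 150 bp and 151 to 200 bp, to 45.8% in partially methylated and to 68.7% in highly methylated clusters.

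Sites close to each other had similar levels. For pairs of covered CpGs of a cluster, deviations from the mean of the cluster's sites were correlated in distance classes of 20 bp, as a description across pairs that share clusters, sites and, up to 75 bp, also reads. In partially methylated clusters Pearson's r was 0.65 at 1 to 20 bp (2664 pairs), 0.34 at 21 to 40 bp, 0.15 at 41 to 60 bp and 0.02 at 61 to 80 bp. It was -0.03 at 81 to 100 bp, returned to 0.16 at 161 to 180 bp (2260 pairs), beyond the reach of 1 read, and was -0.12 at 241 to 260 bp. In highly methylated clusters r was 0.60 at 1 to 20 bp, -0.10 at 81 to 100 bp, 0.15 at 161 to 180 bp and -0.12 at 241 to 260 bp. The curves thus had peaks and troughs at like distances. The size of the peak rested on how clusters were called, since r at 161 to 180 bp was 0.05 when only sites above 20% counted as mCpGs.

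**Figure D4:**
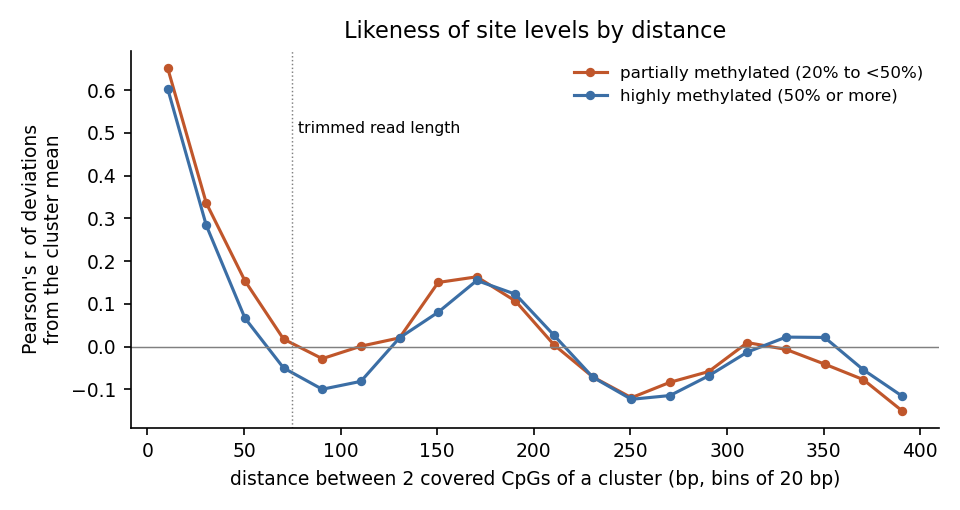
Pearson's r of the deviations of site levels from the cluster mean, for pairs of covered CpGs in classes of 20 bp of distance, in partially methylated and highly methylated mid-length clusters; the dotted line marks the read length of 75 bp. After the fall to -0.03 and -0.10 at 81 to 100 bp, the lines come back to 0.16 in partially methylated and 0.15 in highly methylated clusters at 161 to 180 bp.

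The depth of sequencing moved with the level. The median over clusters of the mean depth was 38.4 reads (37.3 to 39.4) in partially methylated clusters, against 33.2 reads (32.8 to 33.6) in highly methylated ones, and that of their flanks, 1 kbp on each side, was 29.7 and 27.8 reads. In the clusters from 50% to under 60%, the medians of clusters and flanks were 35.7 and 28.7 reads, between those of the other classes. Clusters were deeper than their flanks in 440 partially methylated clusters (78.7%), against 69.0% of highly methylated ones. Within the partially methylated clusters, sites at 10% or less had a median of 43 reads, and sites above 75% had 25 reads. In highly methylated clusters these medians were 34 and 27 reads. Conversely, sites of partially methylated clusters with 10 to 19 reads had 59.7% methylation and those with 60 reads or more had 32.8%, against 71.6 and 59.8% in highly methylated clusters. Spearman's rho of depth and level within a cluster had a median of -0.33 over the 477 partially methylated clusters with at least 10 covered CpGs, and it was negative in 393 of them, against a median of -0.14 over 3688 highly methylated clusters. Part of this follows from the rule, which pools reads, so that deep sites of low level pull a cluster under 50%. Indeed, the mean of the sites' own percentages was 49.2% in partially methylated clusters and 67.8% in highly methylated ones, and it was 50% or more in 269 of the 559. The part of depth in the levels was not tested.

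**Figure D5:**
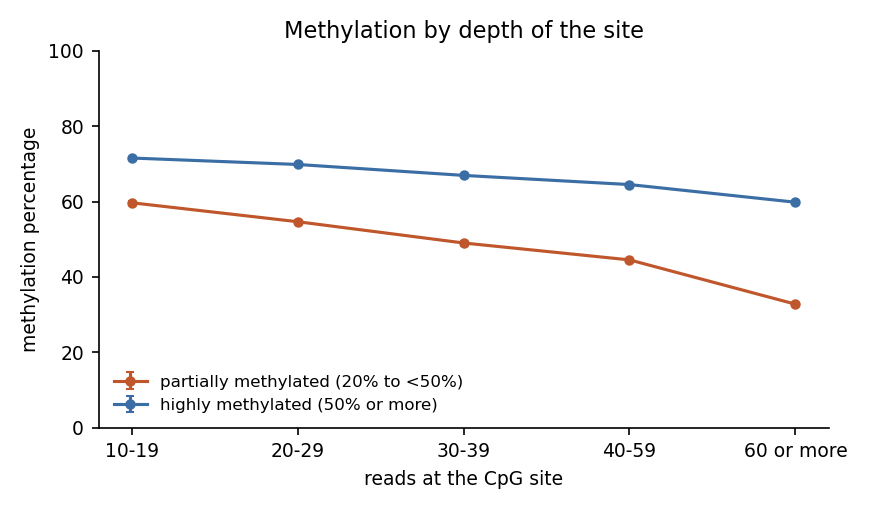
Pooled methylation percentage of covered CpGs against the number of reads at the site, for partially methylated and highly methylated mid-length clusters; the 95% Wilson intervals are mostly smaller than the points. The line of partially methylated clusters falls by depth class to 32.8% at 60 reads or more, below its 59.7% at 10 to 19 reads, and that of highly methylated clusters to 59.8%, below its 71.6%.

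CpG sites with fewer than 10 reads did not enter the percentages by which the clusters were chosen, but within 75 bp of a covered CpG they share reads with it, so their levels are given as a description only. The partially methylated clusters contained 791 of them, with 3236 methylated among 4809 reads, or 67.3% (66.0 to 68.6%). In highly methylated clusters, 8506 such sites had 71.0% (70.6 to 71.4%), and in the clusters from 50% to under 60%, 2063 had 66.7% (65.8 to 67.5%). The interval of the partially methylated clusters thus overlapped that of the clusters nearest in level. Pooled over these shallow sites, the level in partially methylated clusters was above 50%. Among the covered CpGs, the class of least depth also had the highest pooled level. Levels of single shallow sites were not measured.

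CpG sites were sparse in these clusters, as in methylated clusters in general. The median was 15.5 CpG sites per kbp (15.1 to 16.0), against 40.5 in the flanks of the same clusters and 47.6 over all scaffolds. The density was below that of the flanks in 534 of the 559 clusters (95.5%). Highly methylated clusters had 16.9 CpG sites per kbp (16.7 to 17.1) and flanks with 41.0. The density of partially methylated clusters was 0.41 times that of their flanks, against 0.43 times in highly methylated ones, with intervals of 0.392 to 0.428 and 0.424 to 0.438 that overlap. In the flanks the methylation was low, with 4.94% of the reads beside partially methylated clusters and 5.06% beside highly methylated ones. Over all covered CpGs it was 1.45%. The flanks were not cleared of other chains, which often lay close by.

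The clusters often had other chains close by. Another chain lay within 2 kbp of 331 of the 559 partially methylated clusters (59.2%, 55.1 to 63.2%), against 56.1% (54.6 to 57.7%) of highly methylated ones. The nearest such chain had a median level of 60.1% (58.4 to 62.5%), against 62.5% (61.7 to 63.1%) beside highly methylated clusters. It was itself under 50% beside 79 of the 331 (23.9%, 19.6 to 28.7%), against 17.4% (15.9 to 19.0%) beside highly methylated ones. Over all chains with such a neighbor, the share was 17.7%. Of the called clusters with such a neighbor, 145 of 251 had their higher side toward it (57.8%, 51.6 to 63.7%), against 55.7% in highly methylated ones.

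Partially methylated clusters were found on many of the larger scaffolds. SCAFFOLD1 held 41, SCAFFOLD2 32, SCAFFOLD7 29 and SCAFFOLD6 25. On SCAFFOLD7 this came to 7.18 clusters per Mbp and on SCAFFOLD1 to 4.35, against 2.41 on SCAFFOLD18 and 1.48 on SCAFFOLD15. As a share of the mid-length clusters of a scaffold, they made up 20.7% on SCAFFOLD6, 13.4% on SCAFFOLD1 and 10% on SCAFFOLD18, against 12.3% over all scaffolds. Scaffolds shorter than 100 kbp held 17 of the clusters (3.04%), against 3.80% of the highly methylated ones, and 11 clusters were the only chain of their scaffold.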

How the data were processed

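Whole-genome bisulfite sequencing of 1 pool was analysed from the deposited table of counts, in which the authors summed methylated (C) and non-methylated (T) reads of both lanes and strands for each CpG site, without normalization. They trimmed reads to 75 bp, aligned them with BWA allowing up to 4 mismatches, and kept unique alignments. The submitters' processing notes also name CASAVA 1.7. The BWA version, the scaffold release and the treatment of duplicate reads are not given in the sources used here. All deposited columns of counts belonged to the 2 lanes of the pool.

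The clusters and comparison classes were chosen with earlier results of these data known. Shares have 95% Wilson intervals and medians have exact binomial intervals. The SD between sites is the square root of the variance of site levels minus that of counting. Flanks are 1 kbp on each side. Site and side tests covered all chains, with Benjamini-Hochberg adjustment at 0.05, and chain calling and tests were tested on simulated data. Clusters were named when they had the 3 highest numbers of mCpGs, the 3 largest or smallest SDs (at least 10 covered CpGs), the 3 largest differences between called sides, lay next to a limit of the rule (2 on each side), or held a position listed for a gene by the study; the cluster on SCAFFOLD8 at 945145 was named after its values were seen. Alternatives were other coverage minimums (5 and 20 reads), mCpGs above 20%, gaps of 200 and 1000 bp, 2 or 5 closing sites, leaving out the 0.1% deepest covered CpGs, the mean of site percentages, thinned sites, another split and an adjusted p under 0.01. Leaving out clusters deeper than 1.5 times the median of all chains was added after the data were examined. No genome or annotation of the scaffolds' release was used here, so sequences, exons and introns were not analysed. Analyses used Python 3.11.15, NumPy 2.4.6, pandas 2.3.3, SciPy 1.17.1, numba 0.67.0 and matplotlib 3.10.9.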

Additional observations from a re-analysis of the deposited data

How the results depend on the processing

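The number of partially methylated clusters depended on the definitions. It was 238 with mCpGs above 20%, 345 with gaps of at most 200 bp and 342 with the mean of site percentages in place of the pooled percentage, of which 290 were among the 559. In the same 3 settings, unequal sites were called in 237 of 238, 345 of 345 and 341 of 342 clusters tested. Unequal sides were called in 162 of 236, 240 of 345 and 233 of 338. The shares called over all chains were not computed in these settings, so these counts cannot be set against them. Fewer clusters were tested there. The methylation percentage was 44.6, 43.0 and 44.0%, the SD between sites 25.3, 27.5 and 26.6 points, and the difference between sites near the ends and inside -10.2, -9.24 and -12.2 points. With 2 closing sites these 3 values were 43.1%, 27.2 and -10.7 points. With 5 closing sites the SD was 30.02 points and the difference -16.4 points. A minimum of 5 reads gave a difference of -14.0 points, and one of 20 reads gave -10.6 points and 43.6%. Without the deepest clusters the percentage was 43.8% over 493 clusters, of which 361 of 489 had unequal sides. Over all chains tested, deep ones included, 66.0% had unequal sides. The causes of these shifts were not tested. Among the other values recomputed, such as shares, depth and density, 16 moved outside their counting interval and 29 did not. No value changed its sign, and the remaining alternatives for these values stayed within their counting intervals or, for counts, within 1.5 times the number reported. No paired analysis was possible because 1 pool was measured under 1 condition. The median covered CpG had 19 reads, which limits the level of a single site.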

Other observations

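Partially methylated chains of other spans, under 500 bp or from 2500 bp up, numbered 294, and 10 chains of any span were under 20%. They were not described further.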
